A study of Mus musculus with 8 samples.

Results

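The genes of antigen presentation by MHC class II were followed in whole mouse pituitary: Cd74, H2-Aa, H2-Ab1, H2-Eb1, H2-DMa, H2-DMb1, H2-DMb2, H2-Oa, H2-Ob and Ciita. They were taken by gene symbol, each stood on a single row, and they make up 10 of the 49585 rows listed for every library. The libraries came from old (18 to 24 months) and young (2 to 3 months) C57BL/6 mice of wild-type genotype, with 4 Old and 4 Young samples of polyA RNA from the whole gland, taken after perfusion to remove blood. The samples carry a number within each age, and since the labels do not tie each of them to a mouse of its own, a p-value here covers the spread among these libraries and may be technical. The values are FPKM, that is fragments scaled to the length of a gene's exons and to the library total.

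MHC class II molecules are pairs of an alpha and a beta chain that hold peptides from endocytosed protein and show them to CD4 T cells. H2-Aa and H2-Ab1 encode the pair of the A molecule and H2-Eb1 the beta chain of the E molecule, whose alpha chain gene carries a null allele in C57BL/6 mice. Cd74, the invariant chain, blocks the groove of new class II molecules and leads them to endosomes, where cathepsins cut it down. The DM pair (H2-DMa with H2-DMb1 or H2-DMb2) then exchanges the remaining fragment for peptide, and the DO pair (H2-Oa with H2-Ob) restrains DM. Ciita, the class II transactivator, drives transcription of class II genes. Dendritic cells, macrophages and B cells are the usual sources.

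Of the 10 genes, 5 were higher in old pituitary and none was lower: Cd74, H2-Aa, H2-Ab1, H2-Eb1 and H2-DMb1. By the same rule, 1.86% of the 23498 genes tested were higher and 0.472% were lower (limma on log2(FPKM + 0.1), for genes averaging 0.1 FPKM or more, Benjamini-Hochberg adjusted p under 0.05). The median log2 fold change of the 10 genes was 1.27, against 0.15 over all genes tested. For 8 of the 10, every Old library lay above every Young library, which was the case for 13.4% of all genes tested, and H2-Oa and H2-Ob were the exceptions. Scaled to the library total, the fragments of the 10 genes together were at 537, 370.2, 356 and 394 CPM in Old replicates 1 to 4, against 127, 105, 148 and 196 CPM in Young replicates 1 to 4. In bulk tissue, more cells of a type and more RNA per cell cannot be told apart.

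The libraries held 16098530 to 19272104 fragments at the old age and 15042321 to 20429604 at the young age. The tissue label was met by its markers in every library, with Prl at 75300 to 98278 FPKM in Old and 75029 to 85410 FPKM in Young, and Pomc at 2372 to 3852 FPKM in Old and 1483 to 4173 FPKM in Young. Hormone genes and ribosomal RNA repeat genes took 42.8 to 48.1% of the fragments in Old and 48.0 to 52.6% in Young, with Gh, the growth hormone gene, at a log2 fold change of -1.36 (adjusted p = 0.0076). Scaled without them, 212 genes were higher and 189 lower in Old, against 436 and 111 as deposited, and the median of all genes moved to 0.02. The 5 class II genes stayed past the threshold with this scaling, at log2 fold changes of 1.36 to 1.45. Old replicate 1 was the highest Old library for 8 of the 10 genes and Young replicate 4 the highest Young library for 8 of the 10, so results are also given without them where the call of a class II gene changed.

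**Figure D1:**
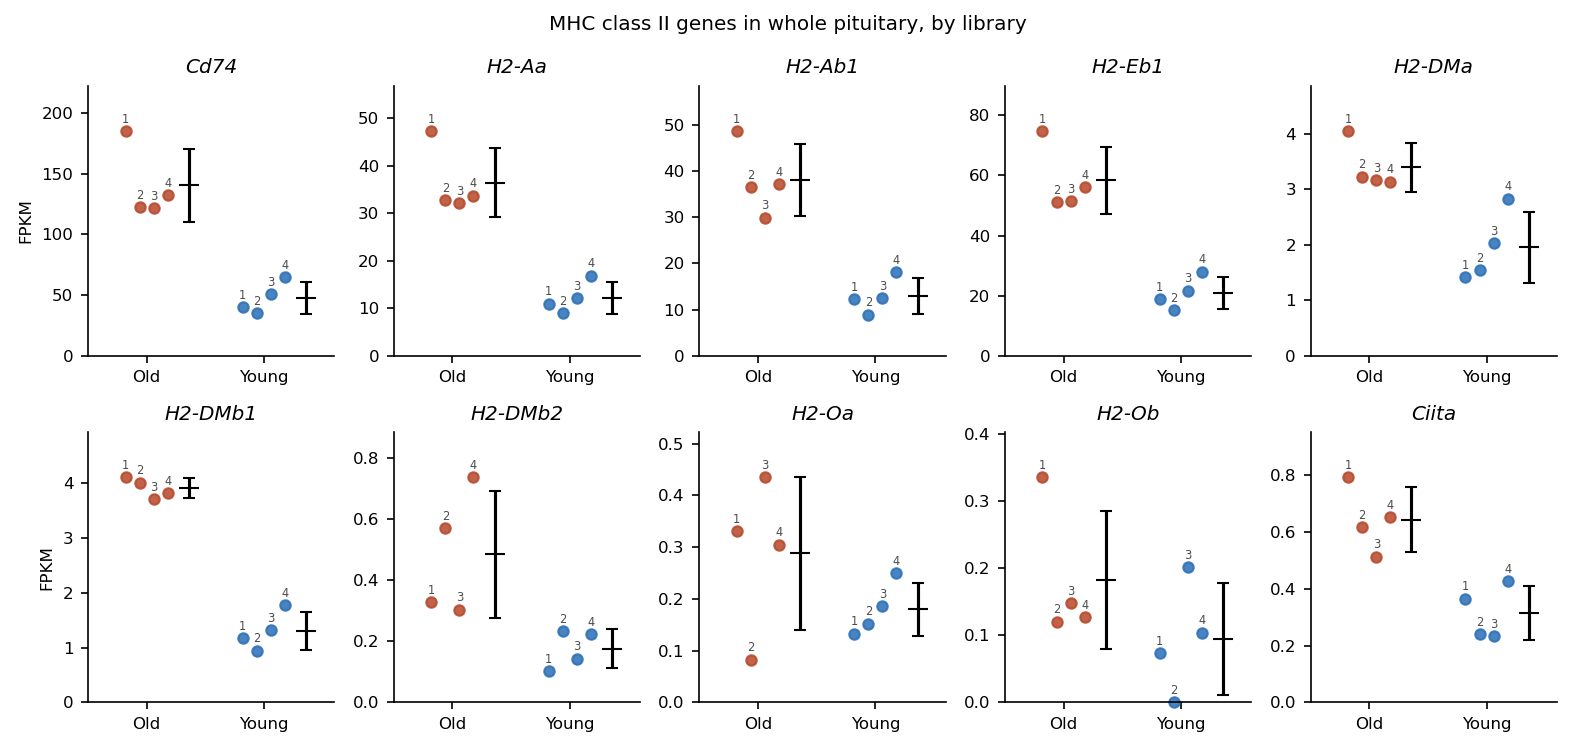
FPKM of the 10 class II genes in each library, Old left and Young right, each gene on its own linear axis. A point is a library, numbered by replicate, and bars give the mean ± SD (n = 4 each). The points of Old and Young overlap for H2-Oa and H2-Ob alone.

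Cd74, the invariant chain, was the most abundant of the 10. It lies on chromosome 18 of GRCm38 from 60803848 to 60812652. It had 185, 122, 122 and 132 FPKM in Old replicates 1 to 4, against 40.3, 35.0, 50.8 and 64.8 FPKM in Young replicates 1 to 4. The lowest Old library was 1.88 times the highest Young library. The means were 140 ± 30.2 FPKM in Old and 47.7 ± 13.1 FPKM in Young (SD, n = 4 each), a 2.94-fold difference that rested on 13965 and 4854 fragments. The log2 fold change was 1.57 (SE 0.23, adjusted p = 0.023).

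The chains of the A molecule moved by nearly the same factor. H2-Aa had 47.4, 32.8, 32.1 and 33.8 FPKM in Old replicates 1 to 4, against 11.02, 8.94, 12.2 and 16.9 FPKM in Young replicates 1 to 4. The groups were apart, with a log2 fold change of 1.59 (SE 0.22, adjusted p = 0.021). H2-Ab1 had 48.6, 36.5, 29.9 and 37.1 FPKM in Old, against 12.3, 8.93, 12.5 and 18.1 FPKM in Young, in the same order of replicates. Its groups were apart too, with a log2 fold change of 1.57 (SE 0.23, adjusted p = 0.024). H2-Aa and H2-Ab1, which form 1 molecule, stayed close to equal in level per length in each library: the ratio of H2-Aa to H2-Ab1 was 0.96 ± 0.081 in Old and 0.95 ± 0.048 in Young (SD, n = 4 each).

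H2-Eb1, the E beta chain, had the second highest level of the 10 in every library. It had 74.8, 51.1, 51.4 and 56.1 FPKM in Old replicates 1 to 4, against 18.8, 15.2, 21.7 and 28.0 FPKM in Young replicates 1 to 4. All Old libraries were above all Young ones, and the log2 fold change was 1.49 (SE 0.21, adjusted p = 0.023). H2-Eb1 per Cd74 was 0.404 to 0.424 in Old and 0.428 to 0.466 in Young, a small gap in the level ratio that was not tested. The E alpha row, H2-Ea-ps, was listed at 0 in all 8 libraries, and H2-Eb2, a neighbouring beta chain gene, averaged 0.460 FPKM in Old and 0.552 FPKM in Young (adjusted p = 0.74).

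The chains of the peptide exchanger DM differed from each other. H2-DMb1 had 4.10, 4.01, 3.70 and 3.81 FPKM in Old replicates 1 to 4, against 1.175, 0.940, 1.32 and 1.77 FPKM in Young replicates 1 to 4. The Old libraries lay within a narrow band, the lowest of them at 2.10 times the highest Young library, and the log2 fold change was 1.55 (SE 0.17, adjusted p = 0.012). H2-DMa had 4.05, 3.23, 3.16 and 3.14 FPKM in Old, against 1.42, 1.54, 2.03 and 2.83 FPKM in Young. These groups did not overlap either, but Young replicate 4 came close to the Old libraries, and the log2 fold change of 0.81 did not pass the test (SE 0.22, adjusted p = 0.096). It passed without Young replicate 4 (adjusted p = 0.049) and with voom on fragments computed back from the FPKM (adjusted p = 0.028), where 6.11% of all genes were higher.

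The level ratio of H2-DMb1 to H2-DMa was 1.01, 1.24, 1.17 and 1.22 in Old replicates 1 to 4, against 0.83, 0.611, 0.650 and 0.624 in Young replicates 1 to 4. In level per length, the beta chain gene was thus above the alpha chain gene in all 4 Old libraries and below it in all 4 Young libraries. Where this ratio crosses 1 depends on the exon lengths, fitted here at 1485 bases for H2-DMb1 and 1641 for H2-DMa. In fragments, Old replicate 1 had 98 for H2-DMb1 and 107 for H2-DMa. This ratio was singled out after its values had been seen and was not tested. H2-DMa per H2-Aa was lower in Old, at 0.0855 to 0.0986, against 0.129 to 0.172 in Young. In GENCODE M21, H2-DMa shares 360 exon bases with Brd2 on the opposite strand, and whether the counting used strand was not stated. The exon length of H2-DMa in that annotation is 3448 bases, against the 1641 fitted, so whether the shared bases were counted is not known. Brd2 had 27.5 FPKM in Old and 21.3 FPKM in Young on average (log2 fold change 0.37, adjusted p = 0.071). It passed in 4 of 8 other settings, the replicate block not counted. The part of the overlap with Brd2 in the H2-DMa values was not tested.

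H2-DMb2, the second DM beta chain gene, had 0.327, 0.569, 0.303 and 0.736 FPKM in Old replicates 1 to 4, against 0.102, 0.233, 0.143 and 0.224 FPKM in Young replicates 1 to 4. All Old libraries were higher, but on 59 fragments in Old and 21 in Young, and the log2 fold change of 1.05 did not pass the test (SE 0.28, adjusted p = 0.096). Of the stretches of 50 bases in the H2-DMb1 exons, 22.7% also occur in those of H2-DMb2, so the split of fragments between these copies is uncertain.

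The DO pair was near the limit of detection. H2-Oa had 0.331, 0.0823, 0.434 and 0.305 FPKM in Old replicates 1 to 4, against 0.133, 0.152, 0.186 and 0.25 FPKM in Young replicates 1 to 4. With 27 fragments in Old and 17 in Young the groups overlapped, and Old replicate 2 was the lowest of all 8 libraries (log2 fold change 0.38, SE 0.33, adjusted p = 0.54). H2-Ob had 0.335, 0.120, 0.148 and 0.127 FPKM in Old, against 0.0738, 0, 0.202 and 0.104 FPKM in Young. The groups overlapped, on 40 fragments in Old and 23 in Young, with a log2 fold change of 0.58 (SE 0.36, adjusted p = 0.39). At this depth no difference between the ages was detectable for either DO gene. In GENCODE M21, H2-Oa also shares 321 exon bases with BC051537 on the opposite strand. Its fitted length was 1313 bases, against 1407 in that annotation, so whether all the shared bases were counted is not known.

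Ciita, the class II transactivator on chromosome 16, had 0.792, 0.618, 0.514 and 0.653 FPKM in Old replicates 1 to 4, against 0.365, 0.240, 0.233 and 0.427 FPKM in Young replicates 1 to 4. The groups did not overlap, with 239 fragments in Old and 118 in Young. The log2 fold change of 0.85 did not pass the test (SE 0.19, adjusted p = 0.064), but it did with voom on the recovered fragments (adjusted p = 0.019). Cd74 per Ciita was 198 to 237 in Old and 110 to 218 in Young, so that the highest Young library, replicate 3, fell inside the Old range. In GENCODE M21, Ciita shares 329 exon bases with Dexi on the opposite strand. Its fitted length was 5254 bases, against 9535 in that annotation, so whether the shared bases were counted is not known.

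By level per length the order was Cd74, H2-Eb1, then H2-Ab1 and H2-Aa, then the DM chains, Ciita, H2-DMb2 and the DO chains. Cd74 was above H2-Eb1 and H2-Eb1 above H2-Ab1 in all 4 Old and all 4 Young libraries. H2-Ab1 was above H2-Aa in 3 of 4 Old and 3 of 4 Young libraries, so these neighbours were not separated. H2-DMb2, H2-Oa and H2-Ob changed places between libraries as well. Cd74, H2-Aa, H2-Ab1 and H2-Eb1 made up 96.6 to 97.3% of the summed FPKM of the 10 genes in Old and 95.6 to 96.2% in Young.

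Not every call was kept when a library was left out. H2-DMb1 kept its call whichever of the 8 was left out (adjusted p = 0.013 to 0.044) and the 4 most abundant genes did not. Without Old replicate 1 their adjusted p was 0.052 to 0.063, without Old replicate 2 it was 0.061 to 0.073, without Young replicate 1 it was 0.062 to 0.068, and without Young replicate 3 it was 0.064 to 0.077. Without Old replicate 3, Cd74 and H2-Eb1 had adjusted p-values of 0.053 and 0.052, and without Old replicate 4, H2-Ab1 had 0.052. The log2 fold changes of these 4 genes stayed between 1.35 and 1.75 in these fits. The 8 fits with a library left out had fewer samples. Over all genes, 64 to 327 were higher in them, against 436 with all 8 libraries. The part of fewer samples in the lost calls was not tested.

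**Figure D2:**
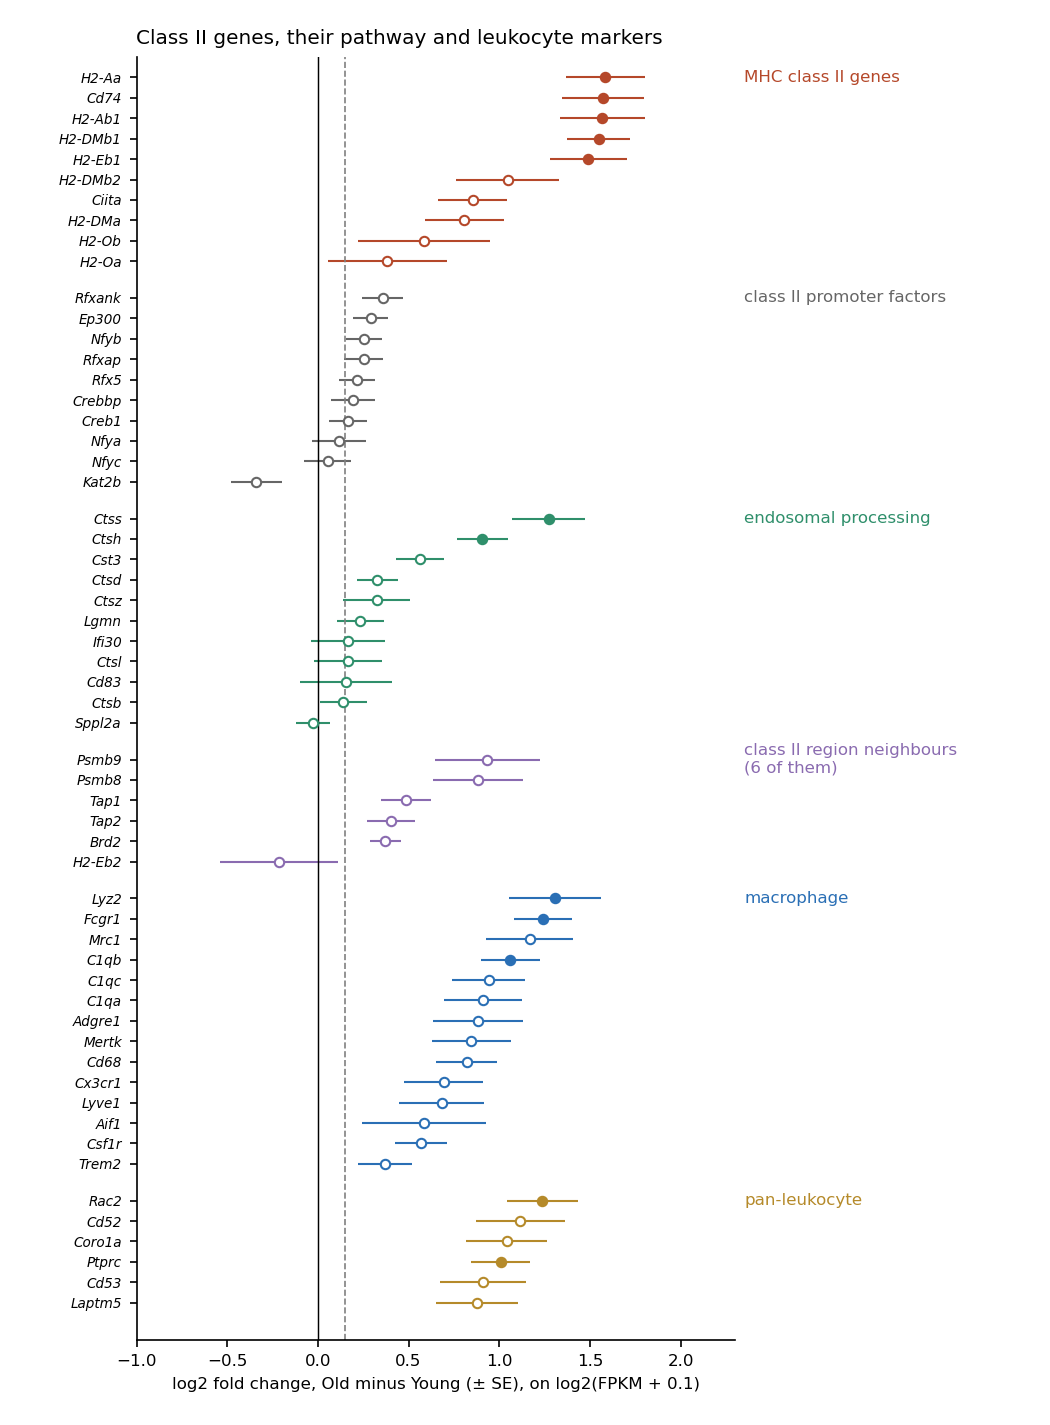
Log2 fold change, Old minus Young, ± SE on the log2(FPKM + 0.1) scale (n = 4 each) for the class II genes, their promoter factors, endosomal processing genes, 6 neighbours in the class II region, and macrophage and pan-leukocyte markers. Filled points passed the test, open points did not, the dashed line is the median of all genes tested (0.15), and the promoter factors lie between -0.34 and 0.36 while macrophage markers lie between 0.37 and 1.31.

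Class II genes are known to be switched on through a shared promoter module, in which the RFX complex (Rfx5, Rfxap, Rfxank) and CREB bind an X box, NF-Y (Nfya, Nfyb, Nfyc) binds a Y box, and Ciita docks on both. RefSeq promoter windows of GRCm38.p6 ran from 250 bases before to 50 bases after a start. They were matched for 7 of the 10 genes in 8 windows, and no window was matched for Cd74, H2-Ab1 and Ciita. The Y box core GATTGG, searched on both strands, was in 7 of the 8 windows and 16.1% of the 32851 windows of all genes. AAC followed after 24 to 27 bases by GATTGG was found in 6 of the 7 genes and 0.913% of all windows, and in 4 of these genes AAC was followed after 2 bases by ATGATGC, longer X box letters found on either strand in 13 of all windows. The letters and the spacing were chosen after these sequences had been read, so the counts are a description. The 6 stretches with the pair are shown from 135 to 32 bases before the start, all on chromosome 17, with capitals for AAC, for ATGATGC where it follows, and for GATTGG.
H2-Aa (chr17:34287855-34287958, minus strand): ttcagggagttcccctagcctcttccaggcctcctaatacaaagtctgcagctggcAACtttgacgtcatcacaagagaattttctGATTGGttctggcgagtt
H2-Eb1 (chr17:34305732-34305835, plus strand): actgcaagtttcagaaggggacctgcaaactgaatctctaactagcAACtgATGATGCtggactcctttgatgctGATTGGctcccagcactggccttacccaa
H2-DMb1 (chr17:34153056-34153159, plus strand): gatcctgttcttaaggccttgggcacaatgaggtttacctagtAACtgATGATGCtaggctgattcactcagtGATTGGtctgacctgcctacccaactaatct
H2-DMb2 (chr17:34145114-34145217, plus strand): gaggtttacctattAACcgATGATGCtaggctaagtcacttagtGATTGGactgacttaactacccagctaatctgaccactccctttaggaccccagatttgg
H2-Oa (chr17:34092244-34092347, plus strand): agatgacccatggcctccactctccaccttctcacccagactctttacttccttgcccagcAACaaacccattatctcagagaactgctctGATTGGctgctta
H2-Ob (chr17:34238770-34238873, plus strand): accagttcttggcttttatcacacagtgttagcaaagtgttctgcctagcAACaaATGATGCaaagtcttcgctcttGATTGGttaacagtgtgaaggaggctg

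The gap between AAC and GATTGG was 27 bases in H2-Aa, H2-DMb1, H2-DMb2 and H2-Oa, 26 in H2-Eb1 and 24 in H2-Ob. In H2-DMa the pair was not in either window, and GATTGG stood 199 bases before its second start. Among genes with a window, the pair was present in H2-Aa, H2-Eb1 and H2-DMb1, which were higher in old pituitary. It was also present in H2-DMb2, H2-Oa and H2-Ob, which did not pass the test on only 17 to 59 fragments per age. The promoters of Cd74, H2-Ab1 and Ciita were not searched. Whether the pair goes with the difference between the ages was not tested.

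**Figure D3:**
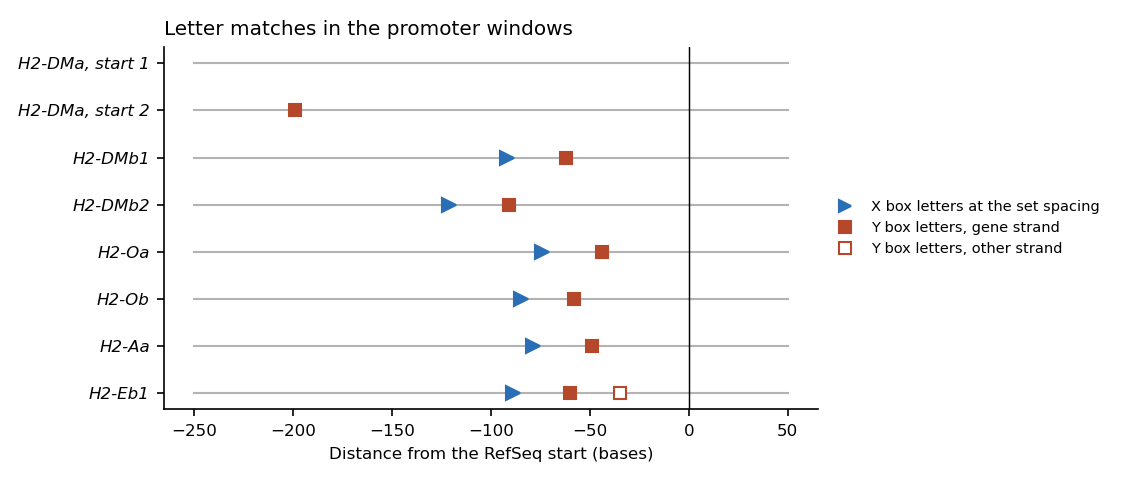
Positions of the searched letters in the promoter windows of 7 class II genes, as distance in bases from the RefSeq start (H2-DMa has 2 starts). Triangles mark AAC that stands 24 to 27 bases before GATTGG, squares mark GATTGG, and the paired letters lie between 121 and 44 bases before the start in 6 genes.

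None of the 10 promoter factors listed passed the test, with 9 log2 fold changes above 0 and a median of 0.21. Of all 23498 genes tested, 16446 had a log2 fold change above 0, and the median was 0.15. Rfxank, a subunit of the RFX complex, averaged 4.85 FPKM in Old and 3.78 FPKM in Young (log2 fold change 0.36, adjusted p = 0.13). Ep300, an acetyltransferase and the most abundant of the list, averaged 6.88 FPKM in Old and 5.62 FPKM in Young (log2 fold change 0.29, adjusted p = 0.14). Kat2b, another acetyltransferase, had the only value below 0, at -0.34 (adjusted p = 0.21). The summed level of the list was 43.8 to 48.5 FPKM in Old and 37.4 to 43.9 FPKM in Young, a 1.15-fold difference of means, against 2.91-fold for the sum of Cd74, H2-Aa, H2-Ab1 and H2-Eb1.

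Interferon gamma is a known inducer of Ciita, and its pathway showed no call among the 11 of 12 listed genes that were tested, with a median log2 fold change of 0.33. Ifng itself had 0 fragments in Old and 1 in Young, and with 0 counted, an Old library could still hold 3 fragments, which is 0.156 to 0.186 CPM. Ifngr1, a receptor chain, averaged 6.05 FPKM in Old and 4.59 FPKM in Young (log2 fold change 0.39, adjusted p = 0.099, or 0.046 with voom). Irf1, a target that acts on the Ciita promoter, averaged 6.91 FPKM in Old and 5.41 FPKM in Young (adjusted p = 0.24). Cxcl10, an interferon-induced chemokine, had a log2 fold change of -0.52 (adjusted p = 0.19).

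Genes that process antigen in endosomes gave 2 calls among 11 tested, both higher. Ctss, cathepsin S, which trims the invariant chain in antigen-presenting cells, averaged 30.6 FPKM in Old and 12.7 FPKM in Young without overlap (log2 fold change 1.27, SE 0.20, adjusted p = 0.028). Ctsh, an aminopeptidase of lysosomes, averaged 1.68 FPKM in Old and 0.859 FPKM in Young (log2 fold change 0.91, adjusted p = 0.025). Cst3, cystatin C, an inhibitor of these proteases, averaged 269 FPKM in Old and 182 FPKM in Young, without overlap but with an adjusted p of 0.073. It passed in 4 of 8 other settings, the replicate block not counted. Ctsl, Ctsb, Ctsd, Ctsz, Lgmn, Ifi30, Sppl2a and Cd83 had log2 fold changes between -0.03 and 0.33 and adjusted p-values of at least 0.16. When a library was left out, Ctss kept its call in 3 of 8 fits and Ctsh in 2 of 8.

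Among costimulatory molecules and class II receptors, Cd86, which engages CD28 on T cells, was the only one of 6 tested to pass, at 0.501 FPKM in Old and 0.247 FPKM in Young (log2 fold change 0.78, adjusted p = 0.027). Its call was lost in 6 of the 8 fits with a library left out and in 4 of 7 other settings, the replicate block not counted. Cd80, its relative, had 13 fragments in Old and 2 in Young and was under the filter. Cd274, the checkpoint ligand PD-L1, averaged 2.75 FPKM in Old and 1.94 FPKM in Young (adjusted p = 0.15), and the class II receptor Cd4 averaged 0.356 FPKM in Old and 0.332 FPKM in Young (adjusted p = 0.83).

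Cd74 also serves at the surface as a receptor for the cytokine Mif, with Cd44 as its signalling partner. Cd44 rose without overlap, averaging 3.41 FPKM in Old and 1.14 FPKM in Young (log2 fold change 1.47, SE 0.17, adjusted p = 0.013), and its call held in all 8 fits with a library left out. Mif averaged 48.0 FPKM in Old and 47.8 FPKM in Young (adjusted p = 0.98) and Ddt, its homologue, 10.8 FPKM in Old and 10.4 FPKM in Young (adjusted p = 0.88). Of 4 genes tested in this list, Cd44 alone passed.

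On chromosome 17 the 8 H2 genes span 224335 bases, from 34092340 to 34316674, and none of the 11 neighbours tested there or next to it passed the test. Psmb8 and Psmb9, subunits of the immunoproteasome that serves MHC class I, averaged 4.79 and 2.23 FPKM in Old, against 2.63 and 1.18 FPKM in Young (adjusted p = 0.11 and 0.13). Tap1 and Tap2, the peptide transporter of class I, had log2 fold changes of 0.48 and 0.40 (adjusted p = 0.11 and 0.15). Of the 11 neighbours, 6 had no overlap with Old higher, namely these 4 genes, Ring1 and Brd2, against 13.4% of all genes tested. Psmb8, Psmb9, Tap1 and Tap2 passed with voom (adjusted p = 0.014 to 0.043), where 6.11% of all genes were higher. Slc39a7, a zinc transporter and the most abundant neighbour, had a log2 fold change of 0.28 (adjusted p = 0.24).

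Markers of cells that carry class II were measured in the same libraries. Of 14 macrophage markers tested, Lyz2, Fcgr1 and C1qb were higher, all 14 had log2 fold changes above 0, and the median was 0.87. Values above 0 were also found for 16446 of all 23498 genes tested. Lyz2 had a log2 fold change of 1.31 (adjusted p = 0.048), Fcgr1 1.24 (adjusted p = 0.018) and C1qb 1.06 (adjusted p = 0.026), while Csf1r, the receptor that macrophages need, averaged 6.06 FPKM in Old and 4.09 FPKM in Young (adjusted p = 0.084, or 0.012 with voom). The summed macrophage list was 78.6 to 105 FPKM in Old and 36.4 to 61.4 FPKM in Young. Of 6 pan-leukocyte markers, Ptprc (CD45, log2 fold change 1.01, adjusted p = 0.028) and Rac2 (1.24, adjusted p = 0.028) were higher, and the list summed to 10.3 to 15.1 FPKM in Old and 4.39 to 7.83 FPKM in Young. With a library left out, Fcgr1 kept its call in 6 of 8 fits, C1qb in 3, Ptprc and Rac2 in 2 each and Lyz2 in 1. The call of Lyz2 was also lost with both other scalings, without a filter and with a pseudocount of 0.01 (adjusted p = 0.053 to 0.063). The part of these cells in the class II values was not tested.

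Dendritic cell markers were sparse and mixed, with 6 of 12 tested, 3 of these 6 with a log2 fold change above 0, and Cd207 at 0 in all libraries. Irf8, a factor of dendritic cells that macrophages and B cells also express, was higher (log2 fold change 0.82, adjusted p = 0.027, kept in 2 of 8 fits with a library left out), and Itgax averaged 1.66 FPKM in Old and 0.576 FPKM in Young without overlap (adjusted p = 0.053). Itgax passed without Young replicate 4 (adjusted p = 0.041) and in 4 of 8 other settings, the replicate block not counted. Clec9a averaged 0.372 FPKM in Old and 0.147 FPKM in Young with overlap (log2 fold change 0.97, adjusted p = 0.099). It rested on 86 fragments in Old and 35 in Young. Clec9a passed in 1 of 8 fits with a library left out and in 1 of 7 other settings, the replicate block not counted. Zbtb46, Cd209a and Siglech had log2 fold changes of -0.08, -0.33 and -0.04 (adjusted p = 0.715 to 0.926). Among genes under the filter, Flt3 had 21 fragments in Old and 5 in Young, and Xcr1 had 11 in Old and 5 in Young. Batf3 had 12 in Old and 8 in Young, Clec10a 9 in Old and 6 in Young, and Ccr7 5 in Old and 11 in Young. Of 10 B cell markers 3 were tested and none passed: Cd79a had a log2 fold change of 1.21 (adjusted p = 0.074) and Cd79b, its partner chain, -0.70 (adjusted p = 0.067). Cd79b passed as lower in 4 of 8 other settings, the replicate block not counted, among them both other scalings (adjusted p = 0.033 and 0.044). Cd79a passed as higher with voom (adjusted p = 0.039). Ms4a1, a B cell surface protein under the filter, had 27 fragments in Old and 4 in Young. The summed B cell list was 2.50 to 3.47 FPKM in Old and 2.25 to 3.15 FPKM in Young.

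Of the other lists, T and NK cell genes gave no call among 5 tested (summed 2.42 to 3.80 FPKM in Old and 0.467 to 2.03 FPKM in Young). The rest were under the filter and not tested. Among these, Cd3e had 34 fragments in Old and 6 in Young, and Cd3g 33 in Old and 3 in Young. Cd8a had 29 in Old and 4 in Young, Cd8b1 16 in Old and 3 in Young, and Klrb1c 6 in Old and 12 in Young. Hemoglobin and Alas2, for blood, gave no call among 5 and spread widely within each age (15.9 to 124 FPKM in Old and 13.02 to 110 FPKM in Young). None of 6 endothelial markers passed, at a median of 0.01. Of 6 mesenchymal markers Col1a1 (log2 fold change -1.55, adjusted p = 0.011) and Col3a1 (-1.59, adjusted p = 0.018) were lower, collagens of fibroblasts. Col1a2, the most abundant of the list, averaged 52.9 FPKM in Old and 54.4 FPKM in Young (log2 fold change -0.07, adjusted p = 0.87). Pdgfra, Pdgfrb and Dcn were at -0.72, -0.22 and -0.20 and did not pass (adjusted p = 0.076, 0.57 and 0.63).

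**Figure D4:**
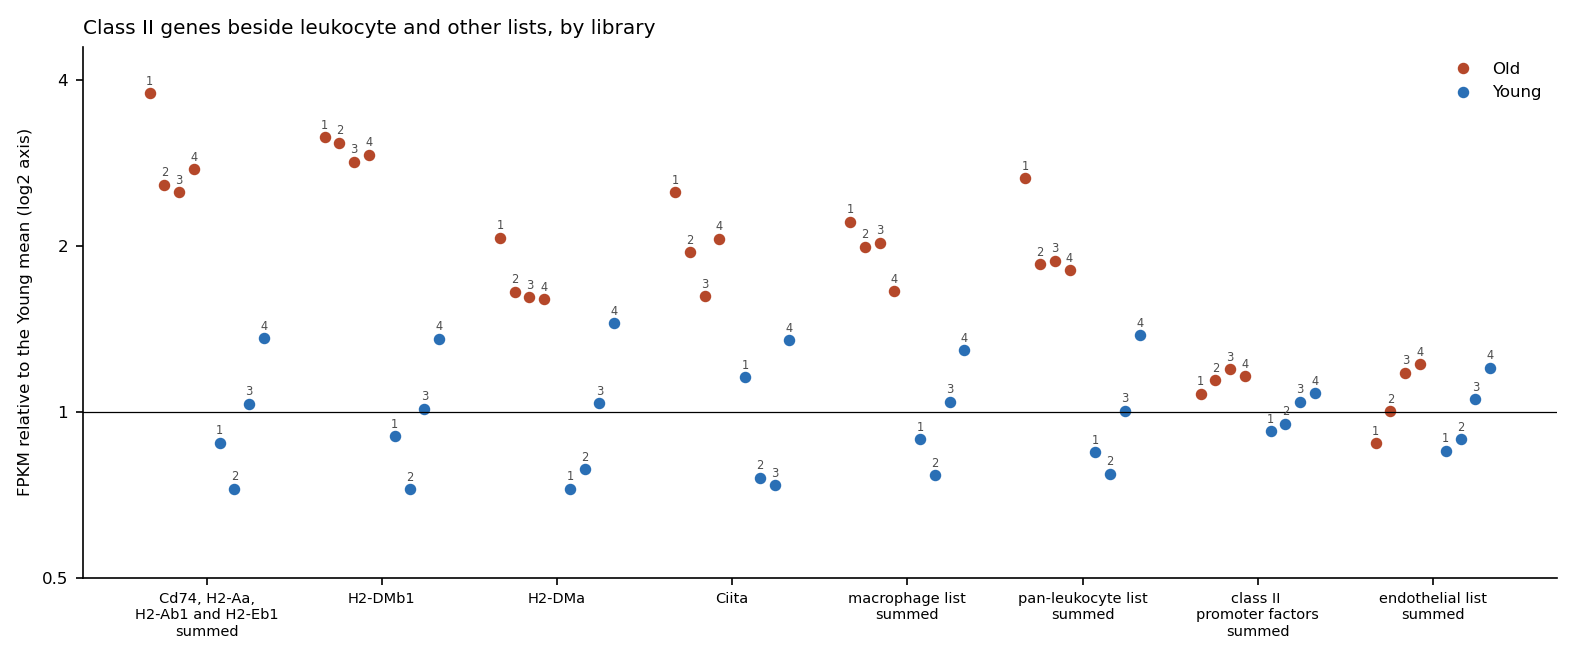
Level of class II genes and of summed marker lists in each library, relative to the mean of the Young libraries (log2 axis), Old left and Young right in each pair, with replicate numbers. Cd74, H2-Aa, H2-Ab1 and H2-Eb1 together stood at 2.50 to 3.79 in Old and 0.726 to 1.36 in Young, the macrophage list at 1.66 to 2.22 in Old and 0.768 to 1.29 in Young.

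Set against these markers library by library, Cd74 was higher in Old per some markers and overlapped per others. Its ratio to a marker did not overlap between the ages, with Old higher, for 6 of 15 macrophage markers and 3 of 6 pan-leukocyte markers, and overlapped for the other 9 and 3. The mean ratio was higher in Old for all 15 and all 6. Cd74 alone did not overlap between the ages, and the same count over all genes was not made. Among the markers with overlap, Cd163 had 50 fragments in Old and 26 in Young, and Lyve1 40 in Old and 16 in Young. Cd74 over the summed macrophage list was 1.76, 1.29, 1.27 and 1.68 in Old replicates 1 to 4, against 0.953, 0.962, 1.03 and 1.06 in Young replicates 1 to 4. Over Csf1r alone it was 19.3 to 31.8 in Old and 8.94 to 12.8 in Young, again without overlap. Over Fcgr1 it was 143 to 193 in Old and 128 to 206 in Young, and over Lyz2 5.41 to 9.45 in Old and 5.86 to 7.17 in Young. Over Ptprc it was 211 to 274 in Old and 184 to 213 in Young, with Old replicate 2 inside the Young range. Over Ctss and over Itgax the groups overlapped, at 3.48 to 5.40 in Old and 3.39 to 4.31 in Young for Ctss, and 68.8 to 118 in Old and 69.4 to 97.3 in Young for Itgax. These ratios are descriptions without a test.

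**Figure D5:**
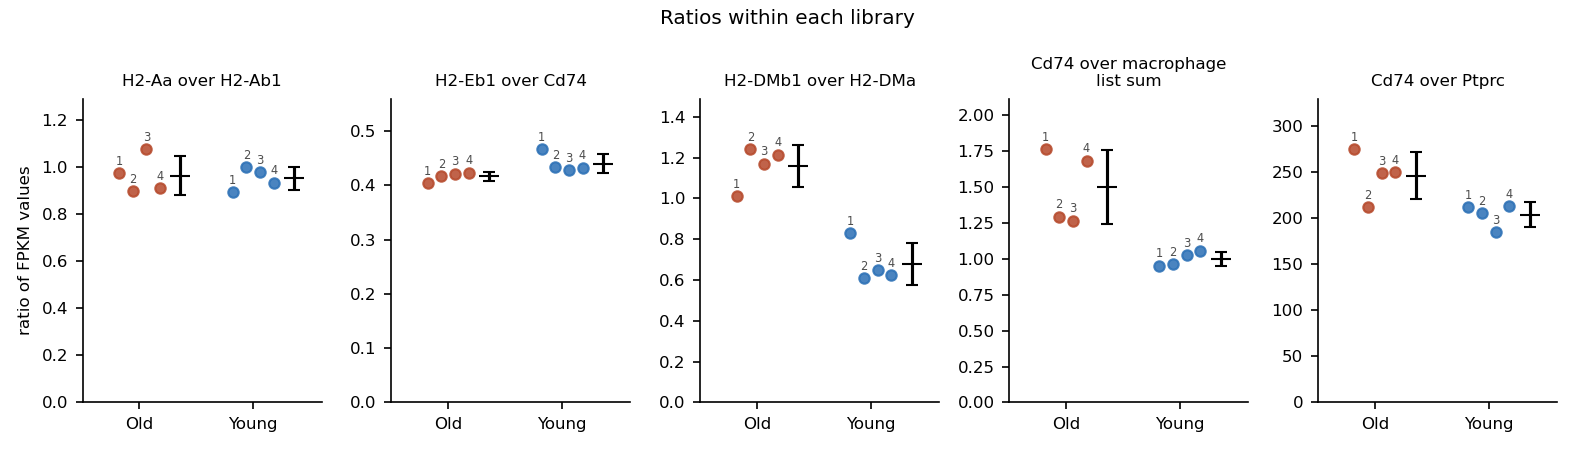
Ratios of FPKM values within each library, Old left and Young right, with replicate numbers and bars for the mean ± SD (n = 4 each). H2-Aa over H2-Ab1 and Cd74 over Ptprc overlap between Old and Young, while H2-DMb1 over H2-DMa, Cd74 over the macrophage list and, by a small gap, H2-Eb1 over Cd74 do not.

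Within an age, the more abundant class II genes varied together. After the mean of each age was subtracted, the deviations of H2-DMa and H2-DMb1 over the 8 libraries correlated at 0.89 and 0.88 (Pearson) with the mean deviation of Cd74, H2-Aa, H2-Ab1 and H2-Eb1. For the low genes the same value was 0.75 for Ciita, 0.75 for H2-Ob, 0.35 for H2-Oa and -0.09 for H2-DMb2, which was highest in Old replicate 4 and Young replicate 2. Laptm5, a leukocyte lysosomal protein, reached 0.92, Adgre1 (F4/80 of macrophages) 0.89, Itgax 0.85 and Ctss 0.80, against 0.50 for Csf1r and 0.18 for Hba-a1. The other macrophage genes compared ran from 0.41 for Cx3cr1 to 0.85 for C1qb, with Cd68 at 0.57 and C1qc at 0.64. Cd79b, whose log2 fold change was below 0, reached 0.82. With 8 points that share library depth and composition, and 14535 genes compared, high values also arose elsewhere. The 8 genes most like the pattern, at a mean of at least 1 FPKM, were Kctd4 (0.99), Cdcp1 (0.98), Gm16020 (0.97), Mir5107 (0.97), Gm44777 (0.97), 2310031A07Rik (0.95), Snx5 (0.94) and Nefm (0.94), and 6 of them did not pass the test between ages. Nefm, a neurofilament gene, was lower in Old (log2 fold change -1.09, adjusted p = 0.025, likewise kept in 2 of 8 fits with a library left out).

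Mir5107 was higher in Old, at 556, 347, 395 and 411 FPKM in Old replicates 1 to 4, against 130, 93.7, 142 and 196 FPKM in Young replicates 1 to 4 (log2 fold change 1.63, SE 0.24, adjusted p = 0.024, kept in 2 of 8 fits with a library left out). In GENCODE M21 it is annotated inside Cd74 on the same strand, from 60812076 to 60812163 of chromosome 18, and shares 12 exon bases with Cd74. Its exon of 88 bases turns 564 to 787 fragments in Old and 124 to 316 in Young into these high FPKM. Fragments of a Cd74 transcript and of this microRNA gene cannot be told apart in these libraries.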

How the data were processed

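Whole pituitary of 4 Old and 4 Young samples was profiled by mRNA sequencing. Per the submitters' processing notes and the paper's methods, the authors aligned reads with STAR (2.6.1a) to GRCm38, assigned them with featureCounts to Ensembl genes and computed FPKM with edgeR (3.28.1). The deposited FPKM, scaled by the authors to exon length and library total, were the only unit used. Which Ensembl release and strand setting they used is not given in the sources used here. Because FPKM were deposited, the main test was limma (3.58.1, R 4.3.3, without trend or robust fitting) on log2(FPKM + 0.1) for genes averaging 0.1 FPKM or more, with Benjamini-Hochberg adjustment over all 23498. Fold changes on this scale understate those of low genes.

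Whole fragments were computed back from the FPKM, with GENCODE M21 exon lengths for 27048 rows and, for 5530 rows that include all 10 class II genes, the smallest length that gave whole numbers within 0.01 in every library. The recovered fragments made up 99.977 to 99.981% of each total, and 91.3 to 92.1% of low values were whole with annotated lengths. They served for depth, voom and counts of rare genes. A count of 0 allows up to 3 fragments, which covers counting error only.

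The 10 genes, the lists and the tests were chosen with earlier results of these data known. The rule for named genes takes all 10, and of each list up to 4 genes with the smallest p, every gene that passed and the most abundant one, and the 8 other genes most like the class II pattern within an age. Not every such gene is described. Promoter sequences are those of RefSeq (GRCm38.p6). The fit was tested on simulated libraries. No libraries of an age agreed within sampling noise. Python 3.11.15, numpy 2.4.6, pandas 2.3.3 and matplotlib 3.10.9 were used. Alternatives were pseudocounts of 1 and 0.01, no filter or a mean of at least 1 FPKM, 2 other scalings, a mean-variance trend with robust fitting, voom, a replicate block and leaving out each library. The paper's single-cell data were not analysed here.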

Additional observations from a re-analysis of the deposited data

Results flagged for a closer look

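Old replicate 1 lay far above the other 3 Old libraries, by Dixon's criterion for 4 samples, for Cd74 (185 FPKM), H2-Aa (47.4 FPKM), H2-DMa (4.05 FPKM) and H2-Ob (0.335 FPKM). Young replicate 1 lay far below the other Young libraries for H2-DMa per H2-Aa (0.129), and Young replicate 2 for Cd74 per Csf1r (8.94). Over 20 groups of values for the genes and 24 for the ratios, 6 were marked, and chance marks about 1 group in 20. The class II genes share their libraries, so these marks are not independent.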

How the results depend on the processing

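The count of 5 class II genes higher and 0 lower was unchanged with pseudocounts of 1 and 0.01, without a filter, with a mean of at least 1 FPKM, with both other scalings and with a mean-variance trend, and it was 7 with voom. With a library left out it ranged from 1 to 6 (64 to 327 genes higher and 21 to 163 lower over all genes), each fit having fewer samples. With the replicate number as a replicate block, 0 class II genes, and 4 genes higher and 0 lower over all genes, passed. The labels do not say whether Old and Young samples of the same number were handled together. Their deviations correlated at 0.06, -0.09, 0.01 and -0.03, which cannot settle it. Over all genes, 436 were higher and 111 lower as reported, 689 higher with a pseudocount of 1, 263 without a filter, 796 with a mean of at least 1 FPKM, 704 with the mean-variance trend, 211 higher and 220 lower with median-of-ratios scaling, 212 and 189 without hormone and ribosomal RNA repeat genes, and 1436 and 356 with voom. For these counts the cause was not tested. Depth limits H2-DMb2, H2-Oa and H2-Ob, which had 17 to 59 fragments per age.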
